A study of Homo sapiens with 2 samples.

Results

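The genes described here are 54 components and regulators of epithelial cell junctions, together with factors of epithelial-mesenchymal transition (EMT), measured in A549, a human cell line from a lung adenocarcinoma. They were chosen by gene symbol from a named list: 9 adherens junction genes, 9 desmosome genes, 18 tight junction genes, 3 polarity genes, 10 epithelial regulators and surface proteases, and 5 mesenchymal factors. RNA was precipitated with an antibody against Argonaute2 (Ago2), the protein that carries microRNAs and the mRNAs paired with them, and measured on Affymetrix arrays. Cells that overexpressed miR-130b gave 1 array, and cells transfected with an empty vector gave the other. The labels name neither the clone, the vector nor the time after transfection.

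Of the 54 genes, 51 were measured, out of 18417 genes with a probe set of their own on the array. OCLN was read through a probe set that also matches its pseudogene OCLNP1, and the other 50 had their own. F11R and ESRP1 had no probe set with a name here, and CTNND1 shares its probe set with the TMX2-CTNND1 readthrough, so these 3 were left out of all counts. Values are on the log2 scale, and each difference is the value with miR-130b minus that with the empty vector. A level filter kept genes whose mean of both values reached 8.64, the middle value of the named genes. It kept 9209 genes and 30 of the members, while 21 members lay below. With 1 array per group there is no replicate error, test or p-value for any value, and a difference describes these 2 arrays. The spread that can be measured is that between different probe sets of 1 gene, whose differences had a pooled SD of 0.16 (356 genes). It is a spread within these arrays, and a difference above it need not recur in a replicate. Over all kept genes the 5th and 95th percentiles of the difference were -0.63 and 0.59, so differences above that SD were common. A lower value may come from less mRNA, from a smaller share of it held by Ago2 or from fewer cells that express it, and these cannot be told apart here.

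Epithelial cells are joined by 3 kinds of contact. In adherens junctions, cadherins of neighbouring cells bind each other and are tied to actin by catenins. Desmosomes couple desmosomal cadherins through plakoglobin, plakophilins and desmoplakin to keratin filaments, and tight junctions seal the space between cells with claudins and MARVEL proteins such as occludin, held by ZO scaffolds. In EMT, repressors of the SNAI, ZEB and TWIST families lower E-cadherin and other junction genes, and A549 cells are a common model of that transition. The microRNAs of the miR-200 family are known for keeping ZEB repressors low in epithelial cells.

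The overexpressed microRNA and its relatives are shown to set its seed (bases 2 to 8, in capitals) beside those of the miR-200 family. The mature sequences are RefSeq's, 5′ to 3′, and miR-130b-3p lies at chr22:21653354-21653375 on the plus strand (GRCh38.p14). Of 2545 mature microRNAs in the table, 6 carry its seed, of which 4 are printed. The count covers these entries only and is not the size of the seed family.
hsa-miR-130b-3p: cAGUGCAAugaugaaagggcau
hsa-miR-301b-3p: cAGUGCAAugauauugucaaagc
hsa-miR-301a-3p: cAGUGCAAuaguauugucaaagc
hsa-miR-454-3p: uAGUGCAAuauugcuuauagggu
hsa-miR-130b-5p: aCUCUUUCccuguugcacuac
hsa-miR-200b-3p: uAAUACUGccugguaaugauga
hsa-miR-200a-3p: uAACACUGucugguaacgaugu
The seed of miR-130b-3p is shared by miR-301b-3p, miR-301a-3p and miR-454-3p. The other arm of the hairpin, miR-130b-5p, and both miR-200 sequences have other seeds. Where the seed pairs with the mRNAs of the junction genes was not analysed here.

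The arrays carried the labelled difference in the microRNA gene itself, with MIR130B at 12.64 in miR-130b cells and 6.66 in empty-vector cells. The medians of all 33297 probe sets were 7.77 on both arrays. The keratins KRT8 and KRT18, which mark simple epithelia, stood at 13.48 and 13.19 in miR-130b cells and at 13.38 and 13.22 in empty-vector cells. Of 7 epithelial markers, 6 passed the level filter. EPCAM, the adhesion molecule used as an epithelial marker, was the exception, at 6.80 in miR-130b cells and 7.00 in empty-vector cells. Of 8 fibroblast markers COL1A1 alone passed, none of 5 endothelial markers did, and of 4 measured leukocyte markers CD14 alone did. All 8 fibroblast markers were higher with miR-130b, with a mean log2 value of 7.39 in miR-130b cells and 6.89 in empty-vector cells, and with single differences between 0.09 (DCN) and 1.71 (FAP, at 6.97 in miR-130b cells and 5.26 in empty-vector cells). All 5 endothelial markers (median difference 0.28) and all 4 measured leukocyte markers (median 0.12) were higher with miR-130b as well. Of all 9208 genes below the filter 65.6% were higher, with a median of 0.08. Their part in the junction values was not tested.

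The main pattern was a lower value of several junction mRNAs in the Ago2 precipitate with miR-130b. OCLN was 5.44-fold lower, MARVELD2 2.24-fold, CLDN1 2.23-fold, CDH1 2.17-fold and CXADR 2.15-fold. These 5 were 16.7% of the 30 kept members, while 1.6% of the 9209 kept genes were at least 2-fold lower. CDH6 alone was 2-fold higher or more, 3.33% of the kept members against 1.32% of kept genes. At 1.5-fold, 7 kept members were lower (23.3%) and 2 higher (6.67%), against 5.87% and 5.04% of kept genes. Of the 30 kept members 18 were lower and 12 higher (PKP3 and PARD6B, both near 0, changed sign under quantile normalization), with a median difference of -0.14. All kept genes had a median of 0.010, and 51.5% of them were higher. Of the 21 members below the filter 14 were higher, as were 65.6% of all genes below it. Over all 51 measured members the median was 0.005, against 0.053 over all 18417 genes. A negative median therefore holds for the kept members and not for the measured ones as a whole. The median of the measured members still lay below that of all genes. The genes were listed with earlier results of these arrays known, OCLN and CDH1 among them, so these shares are a description.

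**Figure D1:**
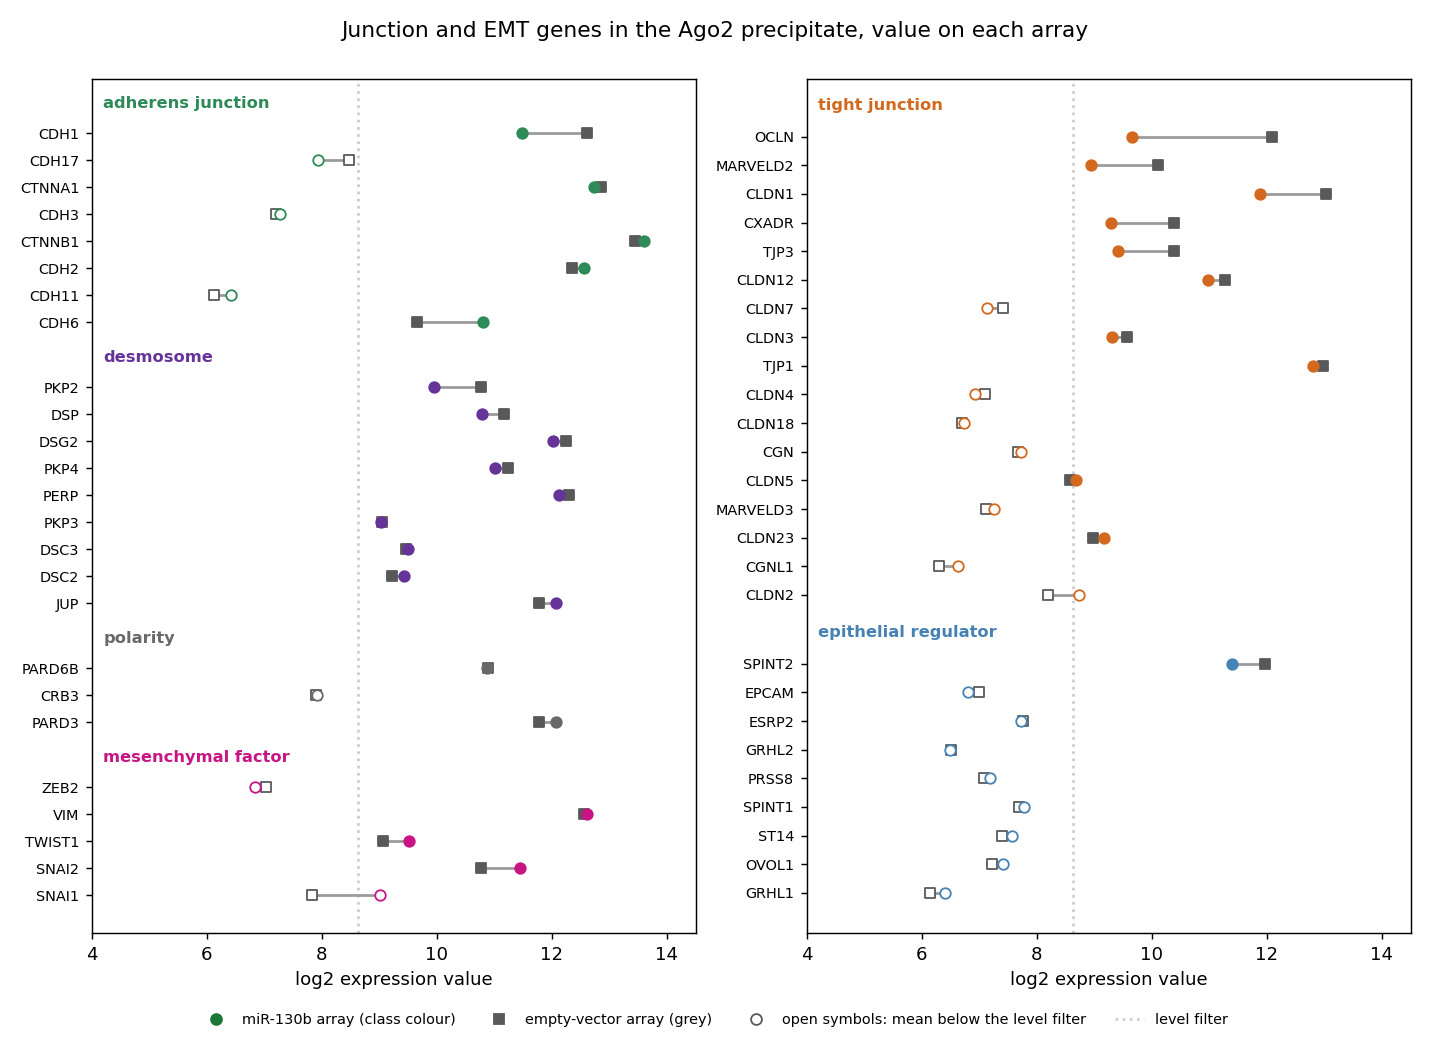
Value of each measured member on the miR-130b array (circles in the colour of the class) and on the empty-vector array (grey squares), in log2 units, sorted by difference within each class. Open symbols mark members below the level filter of 8.64 (dotted line). OCLN has the longest gap, 9.65 against 12.10.

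Among kept members, the tight junction genes had the lowest class median. Of 18 listed genes 17 were measured and 10 kept, with 8 lower and 2 higher in miR-130b cells and a median of -0.64. Among all kept genes 51.5% were higher. Of the 7 below the filter 5 were higher, as were 65.6% of all genes below it. Over all 17 the median was -0.18, close to the -0.17 of the desmosome genes. With the polarity genes counted among them the kept median was -0.28, above the -0.57 of the epithelial regulators, a class with 1 kept gene. The further tight junction and polarity genes described below (10 kept, 6 higher and 4 lower) had a median of 0.13. Members and classes were chosen with earlier results of these arrays known, so the class order is a description. OCLN, occludin, a MARVEL-domain protein of the seal, stood at 9.65 in miR-130b cells and 12.10 in empty-vector cells, a difference of -2.44. That placed it among the lowest 0.076% of kept genes. MARVELD2, tricellulin, which seals the points where several cells meet, stood at 8.95 in miR-130b cells and 10.11 in empty-vector cells. Its probe sets, 2 in number, hold identical values and count as 1 reading. MARVELD3, the other MARVEL-domain protein among the listed genes of this class, was below the filter at 7.26 in miR-130b cells and 7.12 in empty-vector cells.

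The claudins, which form the paracellular barrier and its pores, were unequal. CLDN1, a barrier-forming claudin, stood at 11.88 in miR-130b cells and 13.03 in empty-vector cells, a difference of -1.16. It was the 1 claudin past 2-fold among 9 measured and 5 kept. CLDN12 differed by -0.30 and CLDN3 by -0.26, and CLDN5 and CLDN23 differed by 0.10 and 0.19. CLDN2, which forms cation pores, lay just under the filter, at 8.74 in miR-130b cells and 8.20 in empty-vector cells, a difference of 0.54 in the other direction from CLDN1. CLDN5 lay just above it, with a mean of 8.64. The values of CLDN4, CLDN7 and CLDN18, all below the filter, differed by -0.18, -0.28 and 0.04.

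CXADR, the coxsackievirus and adenovirus receptor, an immunoglobulin-type adhesion protein of the tight junction, stood at 9.29 in miR-130b cells and 10.39 in empty-vector cells. Its difference was -1.10. The cytoplasmic ZO scaffolds link these proteins to actin. TJP3 (ZO-3) stood at 9.42 in miR-130b cells and 10.39 in empty-vector cells, 1.96-fold lower and just short of the 2-fold mark. TJP1 (ZO-1) stood at 12.80 in miR-130b cells and 12.98 in empty-vector cells, a difference of -0.18, close to the SD between probe sets. The cingulins CGN and CGNL1 were below the filter and differed by 0.07 and 0.32.

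Adherens junction genes did not share a direction. CDH1, E-cadherin, the main cadherin of epithelia, stood at 11.49 in miR-130b cells and 12.61 in empty-vector cells, a difference of -1.12. CDH6, K-cadherin, known from the developing kidney, went the other way, at 10.80 in miR-130b cells and 9.65 in empty-vector cells, 2.21-fold higher. CDH2, the N-cadherin of mesenchymal and neural cells, stood at 12.56 in miR-130b cells and 12.35 in empty-vector cells, a difference of 0.21 that is little more than the probe-set SD. The 3 kept cadherins thus lay below, above and near 0, and CDH3, CDH11 and CDH17 did not pass the filter. Of these CDH17, an intestinal cadherin, differed by -0.55, CDH11 by 0.30 and CDH3, the neighbour of CDH1 in the genome, by 0.06.

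The catenins anchor cadherins. CTNNB1, beta-catenin, which is also the Wnt pathway's transcriptional effector, stood at 13.60 in miR-130b cells and 13.45 in empty-vector cells. CTNNA1, alpha-catenin, the actin linker, stood at 12.74 in miR-130b cells and 12.85 in empty-vector cells. Both differences, 0.15 and -0.11, were under the probe-set SD. The shared probe set of CTNND1, p120-catenin, and its readthrough stood at 12.90 in miR-130b cells and 12.47 in empty-vector cells, a difference of 0.43.

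All 9 desmosome genes passed the filter, with 6 lower and 3 higher with miR-130b (PKP3 changed sign under quantile normalization), a median difference of -0.17 and none past 2-fold. Over all kept genes the share higher was 51.5%. PKP2, a plakophilin that binds desmoplakin in the plaque, was the 1 member past 1.5-fold, at 9.95 in miR-130b cells and 10.77 in empty-vector cells, a difference of -0.82. DSP, desmoplakin, the link to keratin filaments, stood at 10.78 in miR-130b cells and 11.16 in empty-vector cells, a difference of -0.39. JUP, plakoglobin, the catenin that desmosomes and adherens junctions share, stood at 12.08 in miR-130b cells and 11.77 in empty-vector cells, a difference of 0.31. The desmosomal cadherins DSG2, DSC3 and DSC2 differed by -0.23, 0.04 and 0.21. PKP4, PERP, a membrane protein induced by p53, and PKP3 differed by -0.22, -0.17 and -0.02.

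The polarity genes place the junctions at the apical side, and 2 of the 3 passed the filter. PARD3, the scaffold of the PAR complex, stood at 12.07 in miR-130b cells and 11.78 in empty-vector cells, a difference of 0.29. That is above the probe-set SD but between the 5th and 95th percentiles of all kept genes. PARD6B, its partner, stood at 10.87 in miR-130b cells and 10.89 in empty-vector cells, a difference of -0.02. CRB3, the apical Crumbs protein of epithelia, was below the filter at 7.91 in miR-130b cells and 7.90 in empty-vector cells.

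**Figure D2:**
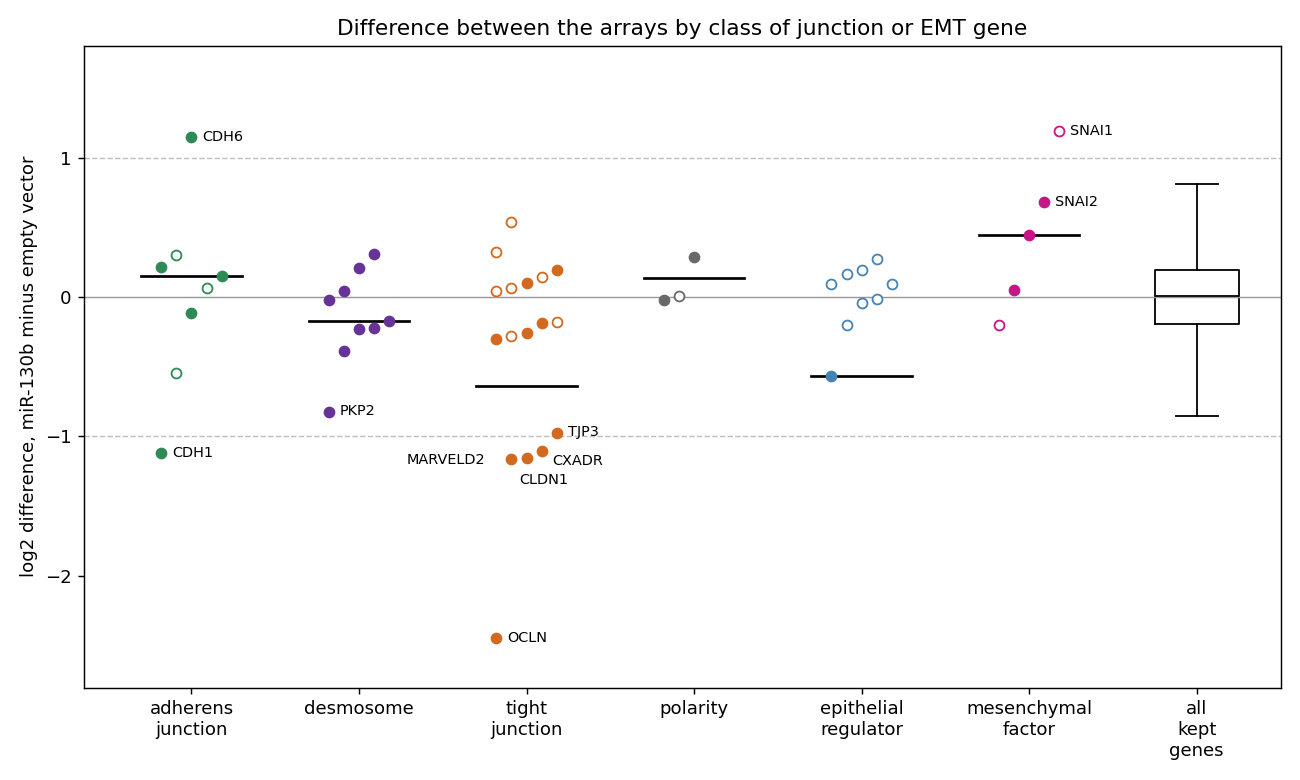
Log2 difference between the miR-130b and empty-vector arrays for each measured member by class, with filled points for kept members, open points for members below the level filter and a bar at the median of the kept members. The box at the right shows all 9209 kept genes (quartiles, with whiskers at the central 95%). Dashed lines mark 2-fold, and 4 tight junction genes and CDH1 lie below the lower one.

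Sorted by place in the cell, a division made after the values were seen, the kept members past 2-fold all encode membrane-spanning proteins. Of 15 kept membrane-spanning junction and polarity proteins 5 were at least 2-fold lower and 1 at least 2-fold higher, with a median of -0.23. Of 11 kept cytoplasmic ones none was past 2-fold in either direction, with a median of -0.11. Over all kept genes the shares past 2-fold were 1.6% lower and 1.32% higher. At 1.5-fold the division was less clear, with 5 of the 15 membrane-spanning and 2 of the 11 cytoplasmic members lower (TJP3 and PKP2), against 5.87% of kept genes. The 2 medians differed by less than the probe-set SD, which is a spread for single genes and not the error of a median.

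Most epithelial regulators could not be read at a level above the filter. Of 9 measured genes 8 lay below it, with differences between -0.20 (EPCAM) and 0.27 (GRHL1) and a median of 0.095. Of these 8, 4 had means at or below 7.21, the 95th percentile of 361 olfactory receptor genes. That family was taken here as a reference for low values, and its own expression in these cells was not checked. Over all classes 10 measured members had means at or below that level, among them MARVELD3, CLDN4, CLDN18, CGNL1, CDH11 and ZEB2. A fold between values that low can be understated by array background. The grainyhead factors GRHL1 and GRHL2, which maintain the epithelial state, differed by 0.27 and -0.02. The splicing regulator ESRP2, the zinc finger factor OVOL1 and the membrane proteases ST14 (matriptase) and PRSS8 (prostasin) differed by -0.04, 0.19, 0.17 and 0.09. Both EPCAM probe sets were lower with miR-130b, by -0.23 and -0.17.

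The protease inhibitors HAI-1 and HAI-2, which restrain matriptase, were measured as SPINT1 and SPINT2. SPINT2 was the 1 kept gene of the class, at 11.40 in miR-130b cells and 11.97 in empty-vector cells, a difference of -0.57 (1.48-fold lower). SPINT1 was below the filter, at 7.78 in miR-130b cells and 7.69 in empty-vector cells.

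The 3 kept mesenchymal factors were all higher with miR-130b, with a median difference of 0.44, and 51.5% of all kept genes were higher. SNAI2 alone of the 3 was past 1.5-fold. With the brightest probe set of each gene ZEB2, which was lower, joined the kept members and the median was 0.25. The fibroblast, endothelial and leukocyte markers given above were higher too, and their part in the mesenchymal values was not tested. SNAI2, the zinc finger repressor Slug, stood at 11.45 in miR-130b cells and 10.77 in empty-vector cells, a difference of 0.68 (1.60-fold higher). TWIST1, a basic helix-loop-helix factor of mesoderm, stood at 9.51 in miR-130b cells and 9.06 in empty-vector cells, a difference of 0.44. VIM, the intermediate filament vimentin, stood at 12.62 in miR-130b cells and 12.56 in empty-vector cells, a difference of 0.05 that is under the probe-set SD.

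SNAI1, the repressor Snail, fell short of the filter on its mean, 8.41, and was 2.28-fold higher with miR-130b. It stood at 9.01 in miR-130b cells and 7.82 in empty-vector cells, a difference of 1.19. Among all 18417 measured genes 1.06% were at least 2-fold higher, and 2 of the 51 measured members, CDH6 and SNAI1, were. ZEB2, another E-cadherin repressor, was at 6.83 in miR-130b cells and 7.04 in empty-vector cells over its probe sets, which disagree in level. The brighter of them read 9.28 in miR-130b cells and 9.38 in empty-vector cells, and the dimmer read 4.38 in miR-130b cells and 4.69 in empty-vector cells.

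**Figure D3:**
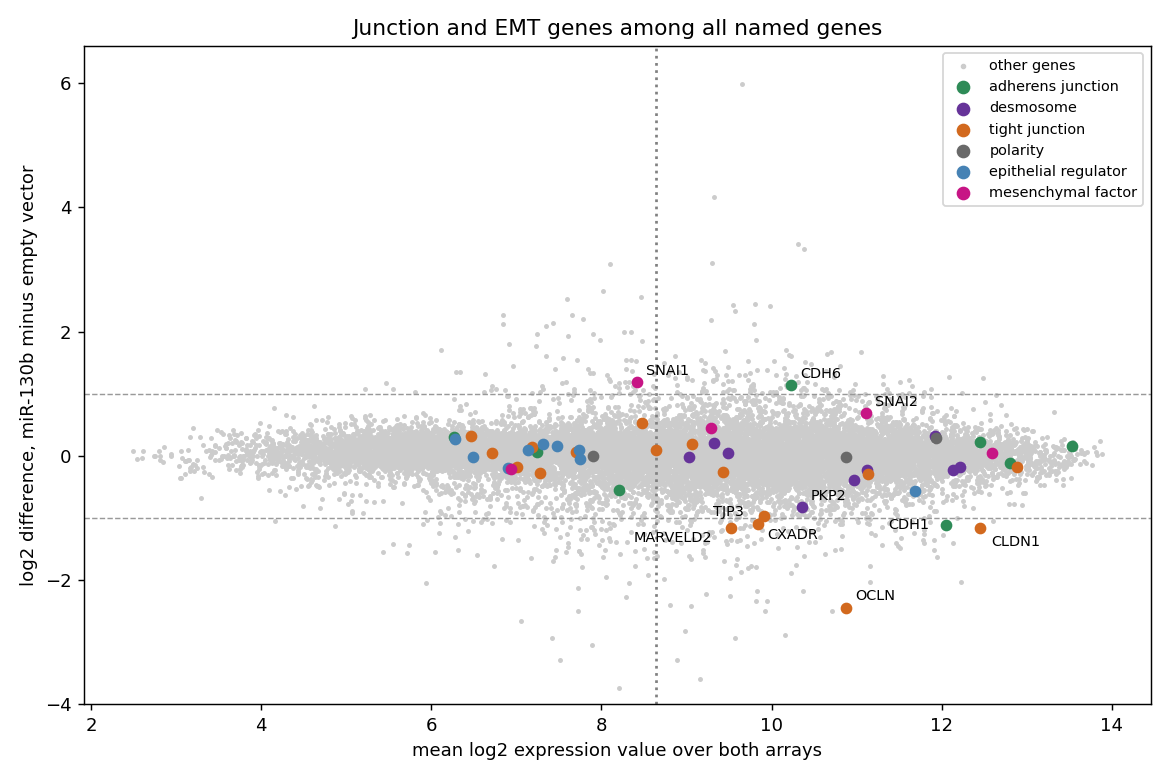
Log2 difference (miR-130b minus empty vector) against the mean log2 value over both arrays for all named genes (grey) and for the members (coloured by class). The dotted line is the level filter and the dashed lines mark 2-fold. CDH1 and CLDN1, with means of 12.05 and 12.45, lie below the lower 2-fold line.

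Position in the genome was compared for members that are next to each other in the order of protein-coding genes. MARVELD2 and OCLN are direct neighbours on chromosome 5, and both were at least 2-fold lower. RAD17, a checkpoint gene on the other side of MARVELD2, stood at 9.51 in miR-130b cells and 10.04 in empty-vector cells, a difference of -0.53. The pair CDH3 and CDH1 on chromosome 16 did not share a difference (0.06 and -1.12). CLDN3 and CLDN4 on chromosome 7 differed by -0.26 and -0.18. CDH2, DSC3 and DSC2, in a row on chromosome 18, differed by 0.21, 0.04 and 0.21.

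The promoters of tight junction genes that were lower are shown because SNAI and ZEB repressors are known to bind the E-box CAGGTG. The windows are the 250 bases before a RefSeq gene start (GRCh38.p14), 5′ to 3′ on the gene's strand, with CAGGTG or its reverse complement CACCTG in capitals. The OCLN window is chr5:69492297-69492546 (plus strand), that of MARVELD2 chr5:69414866-69415115 (plus strand), that of CLDN1 chr3:190322447-190322696 (minus strand) and that of TJP3 chr19:3721487-3721736 (plus strand).
OCLN: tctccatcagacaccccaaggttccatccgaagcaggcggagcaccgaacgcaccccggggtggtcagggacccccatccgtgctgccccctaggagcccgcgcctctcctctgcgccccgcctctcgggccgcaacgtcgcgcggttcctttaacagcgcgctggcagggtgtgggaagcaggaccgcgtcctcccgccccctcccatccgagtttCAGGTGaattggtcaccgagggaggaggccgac
MARVELD2: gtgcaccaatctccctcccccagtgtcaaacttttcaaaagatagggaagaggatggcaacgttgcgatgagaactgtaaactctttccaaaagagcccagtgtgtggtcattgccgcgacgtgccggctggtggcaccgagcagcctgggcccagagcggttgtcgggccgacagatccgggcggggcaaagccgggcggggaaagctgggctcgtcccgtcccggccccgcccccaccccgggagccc
CLDN1: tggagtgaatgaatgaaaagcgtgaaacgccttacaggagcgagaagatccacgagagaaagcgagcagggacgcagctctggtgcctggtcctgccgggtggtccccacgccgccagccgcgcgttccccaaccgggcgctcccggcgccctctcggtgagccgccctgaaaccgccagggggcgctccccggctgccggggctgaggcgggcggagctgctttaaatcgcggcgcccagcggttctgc
TJP3: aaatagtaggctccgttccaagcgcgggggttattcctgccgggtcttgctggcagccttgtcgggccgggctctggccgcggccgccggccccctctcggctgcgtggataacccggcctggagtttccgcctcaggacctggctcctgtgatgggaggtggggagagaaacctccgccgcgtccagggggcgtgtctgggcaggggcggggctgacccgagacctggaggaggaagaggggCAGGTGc
The OCLN window holds CAGGTG at -33 from the start and the TJP3 window at -7, while the windows of MARVELD2 and CLDN1 hold none. A second start listed for OCLN has the motif at -133, and a second start of TJP3 has none. Promoter windows were matched for 28 of the members.

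Of 18 kept members with a window, 7 had CAGGTG on either strand in at least 1 of their windows. They were 2 of the 4 that were at least 1.5-fold lower and 5 of the other 14. CDH1, CXADR and PKP2, which were also at least 1.5-fold lower, had no window here, so their promoters were not examined. These 5 were DSP, DSG2 and TJP1, which were lower with miR-130b, and JUP and DSC2, which were higher. Of 44 member windows 12 held the motif, or 27.3%, and of all 35116 windows of the same length 17.5% did. The wider E-box CANNTG, which includes CAGGTG, was in 21 of the 44 member windows (47.7%) and in 61.8% of all windows, the opposite order to CAGGTG. A match is a run of letters and not a bound site. The G and C share of the printed windows was 68.8% for OCLN, 64.4% for MARVELD2, 68.8% for CLDN1 and 69.6% for TJP3.

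Further junction and EMT genes were read from a wider list. Of 83 further genes 78 were measured and 35 kept. Among these 35 kept genes 24 were higher and 11 lower, their median difference was 0.11, and 2 were at least 2-fold lower and 2 at least 2-fold higher. Over all 9209 kept genes 51.5% were higher, 1.6% at least 2-fold lower and 1.32% at least 2-fold higher. The other tight junction and polarity genes (10 kept, 6 higher and 4 lower) had a median of 0.13. PRKCZ, an atypical protein kinase C of the PAR complex, was the 1 kept gene past 2-fold among them. It stood at 8.96 in miR-130b cells and 10.31 in empty-vector cells, 2.55-fold lower. PATJ, a Crumbs-complex scaffold, differed by -0.44, and the basolateral polarity genes LLGL1 and DLG1 differed by 0.40 and 0.33.

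Among other adherens genes (5 kept) NECTIN2 and NECTIN3, immunoglobulin-type adhesion proteins, differed by 0.41 and 0.19 and AFDN, afadin, by -0.11. EVPL, a plakin and the 1 kept gene of the other desmosome genes, differed by 0.27. The other epithelial genes (9 kept, median 0.06) held both extremes. ERBB3, a receptor of the EGF receptor family, stood at 8.22 in miR-130b cells and 9.83 in empty-vector cells, 3.05-fold lower. EHF, an epithelial ETS factor, stood at 10.83 in miR-130b cells and 9.51 in empty-vector cells, 2.49-fold higher. MUC1 and KRT7 differed by 0.42 and -0.29.

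The other mesenchymal genes (10 kept, median 0.16) were led by TCF4, the E2-2 helix-loop-helix factor, at 10.81 in miR-130b cells and 9.68 in empty-vector cells, 2.19-fold higher. S100A4, a calcium-binding protein of motile cells, differed by 0.88. FN1, fibronectin, differed by -0.47 and ITGB1, the integrin beta 1 chain, by -0.04. ZEB1, added by name as the partner of ZEB2, stood at 9.62 in miR-130b cells and 9.66 in empty-vector cells, a difference of -0.03.

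**Figure D4:**
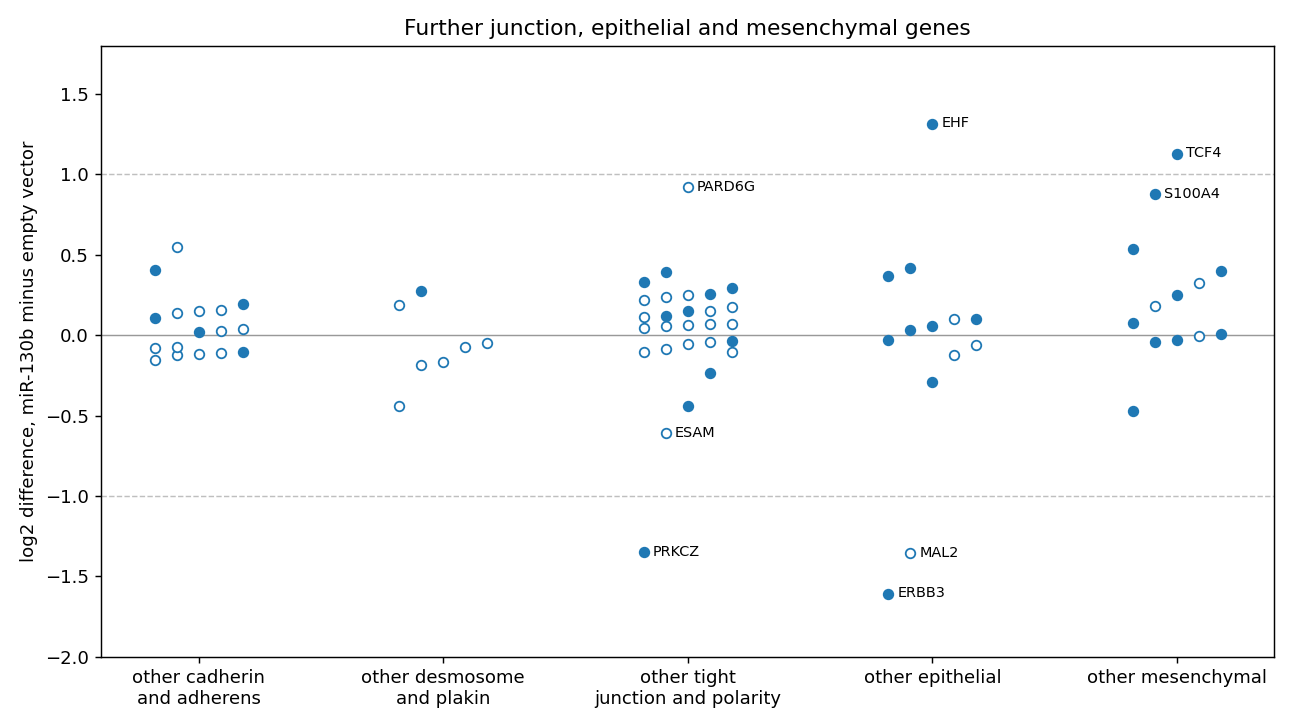
Log2 difference (miR-130b minus empty vector) of further junction, epithelial and mesenchymal genes by list, with filled points for kept genes and open points for genes below the level filter. Dashed lines mark 2-fold. ERBB3 and PRKCZ lie below the lower line and EHF and TCF4 above the upper one among kept genes.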

How the data were processed

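The authors deposited 1 value per probe set and array for 2 samples, miR-130b and empty vector, with 33297 probe sets. From their range (1.95 to 14.2) these deposited values are log2 expression values. Biotin labelling of whole-transcript cDNA is per the labels, which describe a kit for small RNA and tissue storage although the samples are a cell line. For the software, background correction and normalization: not given in the sources used here.

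Probe sets were named through the platform annotation, which gave 19460 probe sets 1 symbol and 1754 several and left 12083 unnamed here, and symbols were updated through RefSeq for 19429. Probe sets of a gene were averaged, giving 18417 genes. The members were set against all kept genes at 2-fold and 1.5-fold, with no test because each group has 1 array. The number of arrays limits the precision. Counting was checked on simulated data. Alternatives were the filter, centring, quantile and cyclic loess normalization, the brightest probe set, the threshold, class membership and the mean. Members, classes and further genes were chosen with earlier results of these data known. The text gives both values for members at least 1.5-fold different, for a defining member of each class and for small classes, and the 2 largest kept differences each way in each further list. CTNND1 and ZEB1 were added. Python 3.11.15, R 4.3.3 and limma 3.58.1 were used.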

Additional observations from a re-analysis of the deposited data

How the results depend on the processing

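Under centring, quantile normalization, cyclic loess and the brightest probe set, 47 of the 51 measured members kept their direction. The other 4 (PKP3, PARD6B, CLDN18 and CRB3) changed sign within 0.05 of 0, all under quantile normalization or cyclic loess. Centring moved every difference by the same small amount. The brightest probe set could change the values of EPCAM and ZEB2 alone, as no other member has differing probe sets. The widths of the ranges that follow therefore come from quantile normalization and cyclic loess. CDH1 lay between -1.12 and -1.10, OCLN between -2.44 and -2.42, MARVELD2 between -1.16 and -1.13, CLDN1 between -1.16 and -1.13, CDH6 between 1.14 and 1.18 and SNAI1 between 1.17 and 1.21. The counts and class medians moved with which members entered. With no filter 2 members were at least 2-fold higher, the tight junction median was -0.18 and that of the epithelial regulators 0.094. With the filter at the 75th percentile 3 members were at least 2-fold lower and 0 higher. With the brightest probe set the tight junction median was -0.97, as CLDN5 left the kept genes, and the mesenchymal median 0.25, as ZEB2 entered. At 1.5-fold 2 members were higher. Counting the polarity genes as tight junction gave a median of -0.28. Other class medians and counts stayed within the probe-set SD or 1.5 times, the setting with CTNND1 among them, which was chosen after seeing the data. That SD is a spread for single genes and served here only as a margin. Within it the median over the members changed sign, from -0.14 to 0.005 with no filter. The adherens junction median fell from 0.15 to 0.019 with the filter at the 75th percentile. No paired analysis was possible because each group has 1 array. Values at the level of olfactory receptor genes limit what the arrays can show for 10 of the 51 measured members. Among these are 4 of the 9 measured epithelial regulators.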
